A study of Mus musculus with 30 samples.

Results

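The clustered histone genes described here were all rows of the deposited expression table whose symbol begins with Hist1h, Hist2h, Hist3h or Hist4h, which gave 69 of 14685 genes. They comprised 6 linker histone H1 genes, 19 H2a, 19 H2b, 12 H3 and 13 H4 genes, and all 69 passed the filter on low values that 14525 genes of the table passed. The rule used names only and no measured value, but it was set with earlier results of these data known. RNA had been sequenced from mouse E14 embryonic stem cells (ESC) and from 4 populations derived from them in culture, in 3 genotypes with 2 samples each, 30 samples in all. The wild type (WT) was compared with cells in which the transcription factor Sp1 lacked its DNA-binding domain on both alleles (Sp1_deltaDBD) and with cells lacking Sp3 (Sp3KO), each mutation being carried by a single line. ESC were grown in maintenance medium, and Flk1+ mesodermal cells were purified on magnetic columns from embryoid bodies. KIT+ cells of the blast culture were sorted 2 days after seeding into hemogenic endothelium 1 (HE1, Tie2+ CD41-), hemogenic endothelium 2 (HE2, Tie2+ CD41+) and progenitors (Tie2- CD41+). No agent was added to any group beyond the culture media, and the comparisons asked how the loss of Sp1 DNA binding or of Sp3 changed expression at each stage.

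Replication-dependent histone genes supply the core histones H2A, H2B, H3 and H4, around which DNA is wound, and the linker histone H1, which binds DNA at the entry to the nucleosome. They are transcribed mainly during S phase, lack introns in most cases, and produce mRNAs that end in a conserved stem-loop instead of a poly(A) tail. The stem-loop binding protein SLBP recognises this hairpin, and Npat coordinates transcription of the clusters at histone locus bodies. Because the libraries were made from total RNA depleted of ribosomal RNA, without selection for poly(A), these mRNAs were captured directly.

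In the GRCm38 annotation (GENCODE), 55 members belong to Hist1 on chromosome 13, 10 to Hist2 on chromosome 3, 3 to Hist3 on chromosome 11 and 1, Hist4h4, lies alone on chromosome 6. A perfect stem-loop, in which a 6-base stem closes a 4-base loop, was found in the annotated transcripts of 46 members. The 8 forms found are shown because they are the feature that sets this mRNA family apart, with the loop in capitals and the stem in lower case.

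Form of 26 members, in H1, H2a, H2b and H3 genes: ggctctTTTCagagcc
Form of 7 members, all H4: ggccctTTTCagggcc
Form of 6 members, in H1, H2b and H3 genes: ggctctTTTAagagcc
Form of 2 H4 members, Hist1h4i and Hist2h4: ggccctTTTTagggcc
Form of 2 H4 members, Hist1h4b and Hist1h4j: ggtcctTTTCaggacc
Form of Hist1h4a: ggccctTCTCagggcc
Form of Hist1h3g: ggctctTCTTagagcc
Form of Hist2h2ac: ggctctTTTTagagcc

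All 8 forms paired fully along the stem, and the H4 stems differed from those of the other classes. Of the 23 members without the hairpin in their model, 15 had an annotated transcript that ended within 2 bases of the stop codon, 2 were pseudogenes and 6 had a longer model. A match to the same search pattern was also present in annotated transcripts of 20 genes of the table outside the 69. The pairing of their stems was not checked. Members with the hairpin had a median log2 fold change of 2.30 in Sp3KO against WT ESC and those without it 1.86, with 34 of 46 and 15 of 23 called higher. Of all genes, 5.4% were called higher in this comparison, and the difference between members with and without the hairpin was not tested.

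Promoters of 61 members were matched in RefSeq (GRCm38.p6), as windows from 250 bases before to 50 after the gene start. On either strand, CCAAT was present in all 49 windows of H1, H2a, H2b and H3 genes and in 3 of 12 H4 windows, against 37.9% of 27025 RefSeq promoters. TATAAA occurred in 57.4% of member windows and in 14.2% of all promoters. GGGCGG, the core of the GC box that Sp family factors are known to bind, occurred in 37.7% of member windows and 35.9% of all promoters, in 9 of 12 H4 windows but in 1 of 16 H2b windows. The median log2 fold change in Sp3KO against WT ESC was 2.78 for members with GGGCGG and 1.90 for those without, but the classes differ in how often they hold it. Within H4 genes the medians were 2.93 and 2.92 and within H2a genes 3.63 and 2.72, while the order was reversed in H1 (0.48 and 0.99), H2b (1.17 and 1.21) and H3 genes (-0.49 and 2.37). Few windows lie behind the reversed values: 4 with GGGCGG and 2 without in H1, 1 with it in H2b and 2 with it in H3. The 2 in H3 are those of Hist2h3c1 and Hist2h3c2. Hist2h3c1 is among the near-identical copies whose single values are uncertain, so the H3 order cannot be relied on. The 150 bases before the start are printed for the member of each class with the largest ESC difference in Sp3KO, with CCAAT, its reverse complement ATTGG, and GGGCGG in capitals.

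Hist1h1c, H1, plus strand, chr13:23738657-23738806: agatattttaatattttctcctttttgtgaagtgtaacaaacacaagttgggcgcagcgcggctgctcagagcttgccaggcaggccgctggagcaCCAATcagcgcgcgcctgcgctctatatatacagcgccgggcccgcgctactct
Hist1h2ao, H2a, plus strand, chr13:21810217-21810366: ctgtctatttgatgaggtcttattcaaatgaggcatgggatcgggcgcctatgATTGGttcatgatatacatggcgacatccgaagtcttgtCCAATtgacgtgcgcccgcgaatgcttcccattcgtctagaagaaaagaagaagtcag
Hist1h2bj, H2b, plus strand, chr13:22043048-22043197: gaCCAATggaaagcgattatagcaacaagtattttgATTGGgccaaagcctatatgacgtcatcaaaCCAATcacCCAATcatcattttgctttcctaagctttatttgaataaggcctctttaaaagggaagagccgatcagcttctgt
Hist2h3b, H3, plus strand, chr3:96268504-96268653: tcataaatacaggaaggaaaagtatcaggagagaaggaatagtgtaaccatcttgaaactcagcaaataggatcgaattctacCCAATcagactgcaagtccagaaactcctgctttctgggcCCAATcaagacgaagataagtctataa
Hist1h4h, H4, plus strand, chr13:23530894-23531043: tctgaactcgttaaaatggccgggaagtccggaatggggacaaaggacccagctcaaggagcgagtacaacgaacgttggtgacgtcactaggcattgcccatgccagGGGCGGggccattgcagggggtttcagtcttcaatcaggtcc

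The first 4 of these sequences hold 1 to 4 CCAAT motifs and no GGGCGG, whereas the H4 promoter holds GGGCGG and no CCAAT. None of the 5 holds TATAAA in the printed stretch.

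Levels are given as FPKM, fragments per kilobase of transcript, scaled to the fragments of the library, which the authors had quantile normalised, so that every library holds nearly the same set of values. Read depth is not given in these values. The histone mRNAs were abundant: 51 of 69 members had a mean above 100 FPKM over the 30 samples, 6 had a mean below 10 and 2 were listed at 0 in at least 1 library. The highest mean was that of Hist2h2bb at 1394 FPKM, followed by Hist1h4d at 1136. In the targeted cells, Sp3 averaged 4.77 FPKM in Sp3KO ESC against 41.4 in WT, and its log2 fold change lay between -3.32 and -2.40 in the 5 populations. Sp1 RNA remained in Sp1_deltaDBD cells, where only the part encoding the DNA-binding domain is removed, at group means of 17.6 to 38.3 FPKM against 25.2 to 49.8 in WT. It was called lower in Flk1+ cells (28.1 against 43.6, adjusted p = 0.0311), HE2 (20.4 against 29.9, adjusted p = 0.0404) and progenitors (17.6 against 29.5, adjusted p = 0.00788). The summed level of 8 ESC markers was 2798 and 2793 FPKM in WT ESC, 2245 and 2102 in Sp1_deltaDBD ESC and 2485 and 2433 in Sp3KO ESC. Both samples of either mutant thus lay below both WT samples, and the part of this in the histone differences was not tested. In the HE1, HE2 and progenitor libraries the sum was at most 15.3.

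Reads cannot be split reliably among near-identical copies, and 31 members shared more than 50% of their 50-base words with another member. In 5 sets, 1 copy shared at least 80% of its words with another. Hist2h2aa1 and Hist2h2aa2 show what this does to single values: in Sp3KO Flk1+ cells Hist2h2aa1 stood at 369 and 638 FPKM and Hist2h2aa2 at 316 and 0.0377, while their sum was 685 and 638. A value near 0 beside a high copy is therefore uncertain, and sums over the class or the set of copies are given beside the single genes.

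Summed over all 69 members, histone mRNA was higher in Sp3KO than in WT in every population, and the groups did not overlap in any of the 5. In ESC the total was 29515 and 27300 FPKM in Sp3KO against 11250 and 7315 in WT, a ratio of means of 3.06. The ratio was 2.13 in Flk1+ cells, 2.20 in HE1, 1.88 in HE2 and 1.46 in progenitors. Each of the 5 classes followed the same order in every population, both Sp3KO samples lying above both WT samples. Sp1_deltaDBD totals overlapped the WT totals in all 5 populations, at ratios of 0.858 in HE1 to 1.41 in ESC. Set against the WT sample of the same number, the total was at a ratio of 1.35 for sample 1 and 1.49 for sample 2 in ESC, 0.98 and 0.682 in HE1, and 0.931 and 0.859 in HE2, while in Flk1+ cells and progenitors sample 1 lay above 1 and sample 2 below it. In ESC these ratios were 1.73 and 2.32 for H4 and 1.67 and 1.72 for H3, and the H4 and H2b sums of Sp1_deltaDBD lay above both WT samples. Whether the numbers mark shared cultures is not given in the sources used here. In bulk samples a change in the number of cells in S phase and a change in histone mRNA per cell cannot be told apart.

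**Figure D1:**
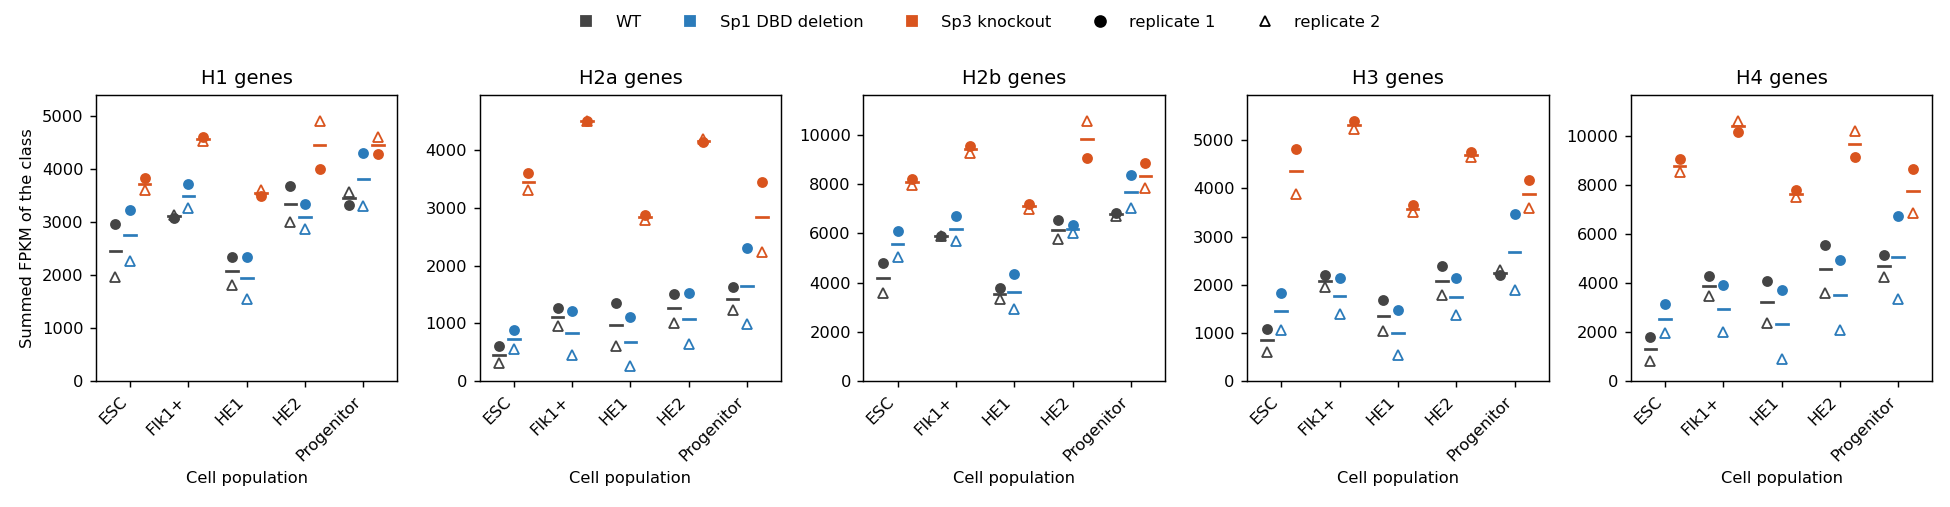
Summed FPKM of each histone class (vertical axis, from 0, with its own scale in each panel) in the 5 cell populations, with a point for each of the 2 samples of a genotype and a bar at their mean. Both Sp3KO samples lie above both WT samples in every panel and population, with ratios of means from 1.23 for H2b in progenitors to 7.44 for H2a in ESC.

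ESC showed the largest differences. Of the 69 members, 49 were called higher in Sp3KO than in WT ESC and none lower, against 11.3% of all genes called in either direction and 5.4% called higher. The median log2 fold change of the members was 2.26, against -0.02 for all genes. By class, 15 of 19 H2a genes, 12 of 13 H4, 10 of 12 H3, 11 of 19 H2b and 1 of 6 H1 genes rose, with median log2 fold changes of 3.36, 2.92, 2.31, 1.19 and 0.68. The H2a sum was 3589 and 3309 FPKM in Sp3KO against 607 and 321 in WT, and the H1 sum was 3821 and 3602 against 2954 and 1965. After a correction for GC content and length the medians of H2a, H4, H3, H2b and H1 genes were 1.63, 2.46, 1.53, 0.64 and 0.56. H2b genes then lay close to H1 genes, and the difference between classes was not tested. Both Sp3KO samples lay above both WT samples in 62 members, against 28.0% of all genes. Without WT sample 2, the library with the lowest histone total of the 6 in ESC, 29 members were called.

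Among H2a genes in ESC, Hist1h2ab was at 334 and 329 FPKM in Sp3KO and 77.4 and 38.3 in WT (log2 fold change 2.60, SE 0.521, adjusted p = 0.00342). Hist1h2ak stood at 353 and 327 against 48.5 and 22.6 (3.36, SE 0.67, adjusted p = 0.00337). In both genes the Sp3KO samples were close together and far above the WT samples. The largest log2 fold changes among called genes were those of Hist1h2ao (9.72 and 7.87 FPKM against 0.191 and 0.136, 5.08) and Hist2h2aa1 (417 and 390 against 24.6 and 18.4, 4.24). Both have near-identical copies, and the summed levels of their sets were 215 and 195 against 24.9 and 14.7 for Hist1h2ao with Hist1h2ap, and 417 and 390 against 43.4 and 18.4 for Hist2h2aa1 with Hist2h2aa2. These sums still separated the groups, at 10.4 and 13 times the WT mean.

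H4 and H3 genes also differed widely in ESC. Hist1h4d was at 1609 and 1574 FPKM in Sp3KO and 443 and 250 in WT (log2 fold change 2.26, SE 0.38, adjusted p = 0.00103), and Hist1h4f at 965 and 843 against 252 and 96.4 (2.53, SE 0.514, adjusted p = 0.00381). Hist4h4, the single gene on chromosome 6, was at 506 and 464 against 106 and 61.7 (2.58, adjusted p = 0.00566), so the rise was seen outside the large clusters as well. Hist1h3e was at 766 and 684 against 145 and 79.0 (2.75, SE 0.402, adjusted p = 3.78e-04), and Hist1h3b at 669 and 489 against 162 and 86.6 (2.27, adjusted p = 0.00183). None of these groups overlapped.

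H2b and H1 genes varied more among themselves. Hist1h2bk rose in ESC (819 and 766 FPKM against 402 and 244, log2 fold change 1.34, SE 0.203, adjusted p = 4.61e-04). The most abundant member, Hist2h2bb, did not pass the test, at 1376 and 1521 in Sp3KO against 1301 and 1521 in WT. Hist1h1d was the H1 gene that rose (936 and 870 against 586 and 402, 0.90, SE 0.208, adjusted p = 0.00911), while Hist1h1a, whose product is an H1 subtype of early embryonic and proliferating cells, stood at 1174 and 1125 against 946 and 677 (0.52, adjusted p = 0.174). Members with tissue-restricted expression, the testis H1 gene Hist1h1t, Hist1h2aa and Hist1h2ba, did not pass the test in ESC (adjusted p = 0.663, 0.563 and 0.121), nor did the 3 Hist3 genes, for which it was 0.0843 to 0.402.

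**Figure D2:**
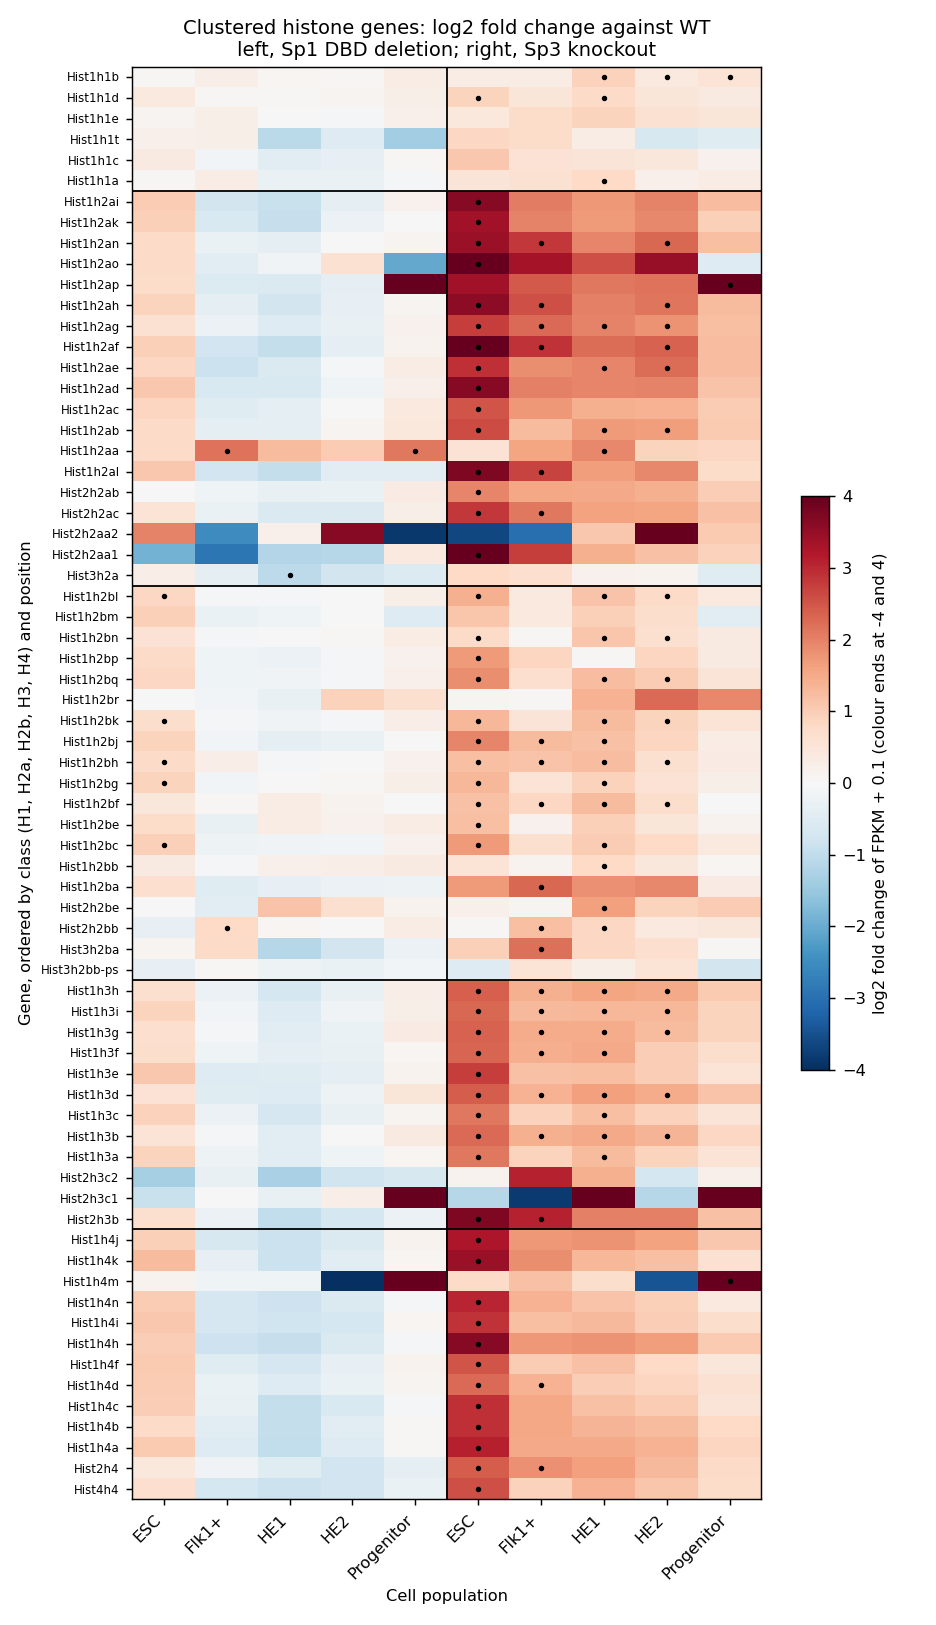
log2 fold change of each of the 69 members against WT (colour, red higher, blue lower, scale ending at -4 and 4) in the 5 populations, Sp1_deltaDBD in the left columns and Sp3KO in the right, with a dot where adjusted p was below 0.05. The Sp3KO columns are mostly red with 49 dots in ESC and 3 in progenitors, and isolated dark cells such as Hist2h2aa2, Hist2h3c1 and Hist1h4m belong to near-identical copies.

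In Flk1+ cells, 21 members were called higher in Sp3KO and none lower, against 12.6% of all genes in either direction and 6.69% higher. They included 7 H3, 6 H2a, 6 H2b and 2 H4 genes and no H1 gene, and the median log2 fold change of the 69 was 1.31. Hist2h3b had the largest rise among H3 genes (299 and 273 FPKM against 42.5 and 26.9, 3.07, SE 0.689, adjusted p = 0.00706) and Hist1h2af among H2a genes (271 and 292 against 46.5 and 30.6, 2.89, SE 0.778, adjusted p = 0.0199). Hist2h2bb, which did not differ by the test in ESC, rose here (2128 and 1729 against 815 and 843, 1.21, SE 0.163, adjusted p = 2.1e-04). Hist1h2ba, known from testis, and Hist3h2ba were also among the 21, from low WT levels of 11.8 to 15.8 and 2.06 to 4.11 FPKM. The count fell to 6, 2, 2 and 4 when WT sample 1, WT sample 2, Sp3KO sample 1 and Sp3KO sample 2 were left out, which leaves 1 sample in an arm. The summed level of the 8 ESC markers was 493 and 452 FPKM in Sp3KO Flk1+ cells against 170 and 130 in WT, 3 of them called higher and 1 lower. The sum of 6 endothelial markers was 15.6 and 13.8 against 5.59 and 6.92, with 3 called higher, and that of the mesoderm markers 488 and 504 against 441 and 446, with 1 called higher. Blood progenitor (14.2 and 17.5 against 20.7 and 25.2) and erythroid markers (4.596 and 4.48 against 7.17 and 9.80) were lower in sum, with 1 of each called lower. The part of these markers in the histone difference was not tested.

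In HE1, 27 members were called higher in Sp3KO and none lower, against 10.9% of all genes in either direction and 6.02% higher, and all 69 had a log2 fold change above 0 with a median of 1.33. H2b genes were the most numerous with 12 of 19, followed by 8 of 12 H3, 4 of 19 H2a and 3 of 6 H1 genes, and no H4 gene passed the test. Hist1h2ag was at 142 and 146 FPKM against 54.0 and 24.5 (1.98, SE 0.548, adjusted p = 0.025), and Hist1h2ae at 97.4 and 90.2 against 38.4 and 14.8 (1.97, adjusted p = 0.0456). Hist1h1b, a replication-dependent H1 gene, rose by 0.92 (SE 0.125, adjusted p = 1.98e-04), and Hist1h1a was at 742 and 758 against 480 and 382 (0.81, adjusted p = 0.0336). Among H4 genes Hist1h4d stood at 1729 and 1609 against 1100 and 659, without overlap, with adjusted p = 0.108. Leaving out WT sample 1, WT sample 2, Sp3KO sample 1 or Sp3KO sample 2 gave counts of 17, 8, 8 and 7. The summed level of 7 blood progenitor markers was 126 and 116 FPKM in Sp3KO HE1 against 59 and 79.3 in WT, 2 of them called higher. The 5 muscle markers summed to 195 and 123 against 1696 and 356, and the ESC markers to 7.23 and 8.16 against 10.7 and 15.3, with none called in either list. Their part in the histone difference was not tested.

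In HE2, 18 members were called higher in Sp3KO, against 13.8% of all genes in either direction and 6.97% higher, and the median log2 fold change was 0.999. They were 6 H2a, 6 H2b, 5 H3 and 1 H1 gene. Hist1h2af was at 303 and 280 FPKM against 82.4 and 38.5 (2.37, SE 0.778, adjusted p = 0.0491) and Hist1h2an at 192 and 170 against 45.8 and 29.8 (2.29, SE 0.645, adjusted p = 0.024). Without WT sample 1 there was 1 call and it was of a lower level, and without WT sample 2, Sp3KO sample 1 and Sp3KO sample 2 there were 2, 4 and 0. Endothelial markers summed to 436 and 447 FPKM in Sp3KO HE2 against 536 and 664 in WT, with 1 of 6 called lower, and mesoderm markers to 118 and 124 against 142 and 185, with none called. Their part was not tested.

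In progenitors, 3 members were called higher in Sp3KO, against 8.65% of all genes in either direction and 3.88% higher, while the median log2 fold change was 0.71. Hist1h1b rose by 0.56 (SE 0.125, adjusted p = 0.00878). The others, Hist1h4m (log2 fold change 9.54, adjusted p = 0.002) and Hist1h2ap (6.09, adjusted p = 0.0239), were copies to which almost no fragments had been assigned in at least 1 WT library. With its copy Hist1h4n, the Hist1h4m sum was 722 and 531 FPKM in Sp3KO against 406 and 303 in WT, a ratio of 1.77, and the Hist1h2ao and Hist1h2ap sum was 211 and 137 against 55.6 and 59.3, a ratio of 3.03. Leaving out WT sample 1 left 1 call. The 5 erythroid markers summed to 1524 and 3474 FPKM in Sp3KO progenitors against 13617 and 4517 in WT, with 1 called lower. Muscle markers (56.8 and 69.1 against 262 and 77.2) and blood progenitor markers (348 and 355 against 378 and 458) were also lower in sum, with none called, and the part of these markers was not tested.

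Across the 5 populations, 59 members had a positive Sp3KO log2 fold change in all 5. Of the 69, 10 were called in no population, 28 in 1, 11 in 2, 12 in 3, 8 in 4 and none in 5. The Sp3KO effect in a later population was then compared with that in ESC. The median difference was -0.86 in Flk1+ cells, -0.80 in HE1, -0.97 in HE2 and -1.43 in progenitors, but only Hist2h2bb, in Flk1+ cells, passed the limma test of the difference (1.17, SE 0.231, adjusted p = 0.015), in the direction opposite to the median. At an unadjusted p under 0.05, 13, 9, 13 and 41 of the 69 members differed in these 4 comparisons, which share the ESC samples, against 13.2%, 16.7%, 12.6% and 16.2% of all genes. At the adjusted threshold 1.48%, 2.16%, 0.544% and 1.34% of all genes were called. Without WT ESC sample 1 the Flk1+ comparison gave 4 calls, 1 higher and 3 lower, and it gave none without WT ESC sample 2, either WT Flk1+ sample, or sample 1 of Sp3KO ESC or Sp3KO Flk1+ cells.

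**Figure D3:**
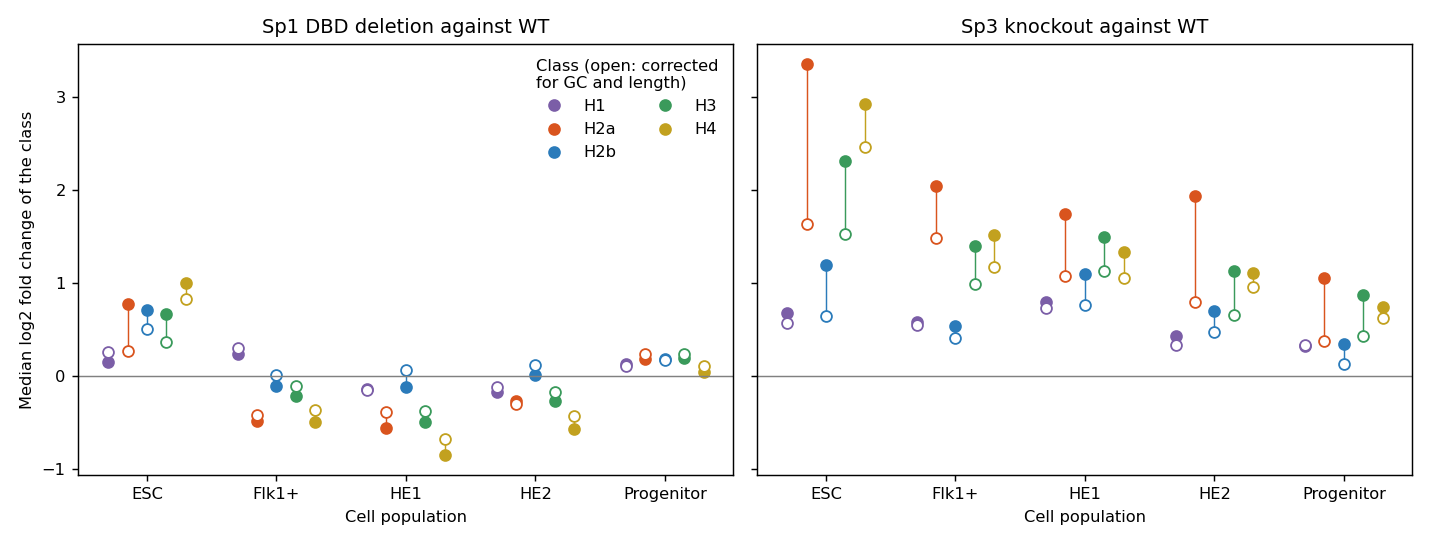
Median log2 fold change against WT for each class (colours) in the 5 populations, filled as fitted and open after removal of a smooth trend with GC content and length in each library. For Sp3KO in ESC the H2a median falls from 3.36 to 1.63 and the H4 median from 2.92 to 2.46 with the correction.

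GC content and transcript length both moved with the Sp3KO difference. The annotated transcripts of members had a median GC content of 57.9% and a median length of 534 bases, against 50.3% and 4214.5 bases for other genes. In Sp3KO against WT ESC the Spearman correlation of log2 fold change with GC content was 0.43 across the 69 members and 0.48 across 14332 other genes, and in HE1 it was 0.42 and 0.12. A GC index was computed for each library from the other genes, as the Spearman correlation of their deviation from the gene mean with GC content. It ran from -0.173 to 0.117 in WT, from -0.313 to 0.0421 in Sp1_deltaDBD and from 0.00736 to 0.295 in Sp3KO, and both Sp3KO libraries lay above both WT libraries in all 5 populations. In progenitors the lowest Sp3KO index exceeded the highest WT index by only 0.000988, against 0.0903 to 0.217 in the other populations. With length, the Spearman correlation in Sp3KO against WT ESC was -0.31 across the 69 members and -0.19 across other genes. A length index of the same kind lay lower in both Sp3KO libraries than in both WT libraries of every population. It was -0.151 and -0.155 against -0.0695 and -0.042 in ESC, and -0.0783 and -0.102 against 0.0317 and -0.0345 in progenitors.

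With a correction for GC content and length, the median Sp3KO log2 fold change of the members was 1.38 in ESC, 0.97 in Flk1+ cells, 0.99 in HE1, 0.67 in HE2 and 0.37 in progenitors, and 35, 15, 22, 7 and 3 members were called, all higher except 1 in Flk1+ cells. The correction called 2.89%, 6.3%, 8.53%, 6.25% and 5.44% of all genes higher. Unlike the GC index, its trend was fitted over all tested genes with a known GC content and length, the members among them. The members thus had a part in the trend that was removed from them. In ESC 12 of 13 H4, 8 of 12 H3, 7 of 19 H2a, 7 of 19 H2b and 1 of 6 H1 genes were called with it. Hist1h4d was almost unmoved at 2.25 and Hist1h3e at 2.60, whereas Hist1h2ak, from a GC-rich class with a median of 64.2%, went from 3.36 to 1.31 (adjusted p = 0.0966). The part of library GC content or length in the remaining difference was not tested.

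**Figure D4:**
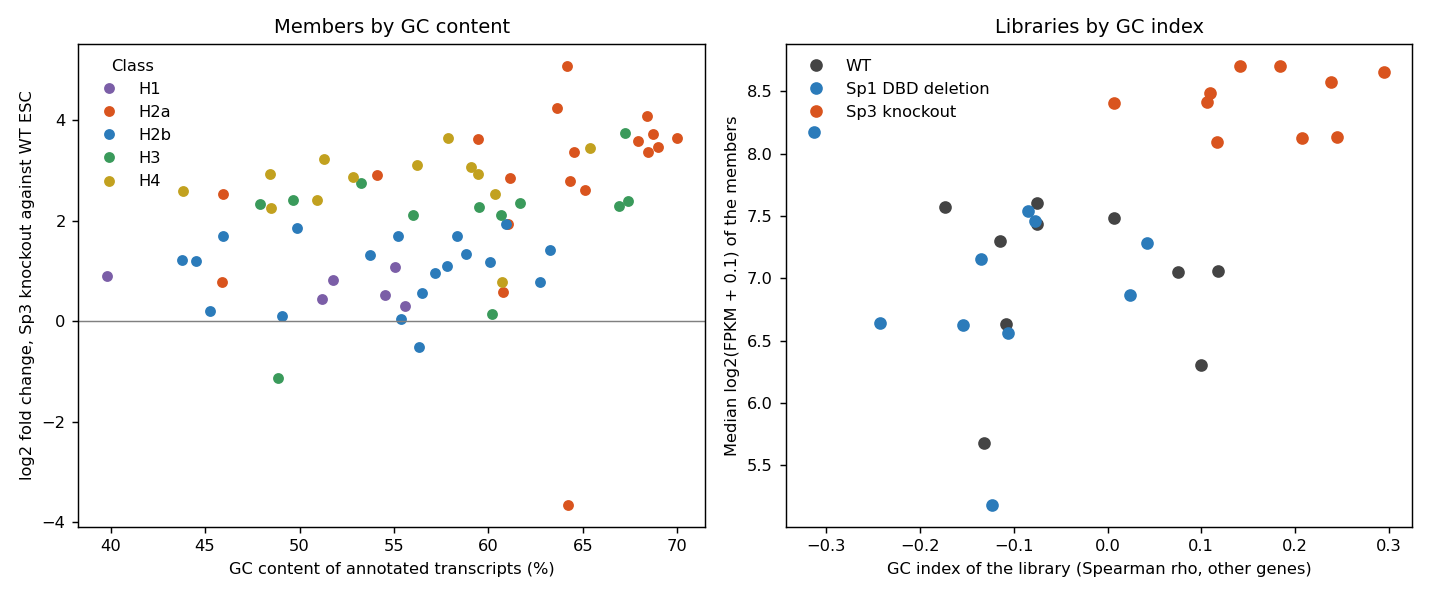
Left, log2 fold change in Sp3KO against WT ESC for each member against the GC content of its annotated transcripts, coloured by class; right, the median log2(FPKM + 0.1) of the members in each of the 30 libraries against the GC index of the library. H2a genes fill the GC-rich end of the left panel, and in the right panel all 10 Sp3KO libraries have an index above 0.

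The loss of Sp1 DNA binding was accompanied by fewer differences. In ESC 5 members were called higher than in WT and none lower, against 6.06% of all genes in either direction and 2.8% higher, and all 5 were H2b genes of the Hist1 cluster. Hist1h2bc was at 495 and 362 FPKM against 318 and 152 (log2 fold change 0.94, SE 0.269, adjusted p = 0.0432), Hist1h2bg at 506 and 406 against 331 and 177 (0.90, SE 0.249, adjusted p = 0.0361) and Hist1h2bk at 563 and 464 against 402 and 244 (0.71, adjusted p = 0.0445). Both mutant samples lay above both WT samples in each, but replicate spread was wide in both genotypes. The median over all 69 was 0.76 and 64 were above 0, without a class in which most genes passed. No call remained without WT sample 2 or without Sp1_deltaDBD sample 1, and 11 members were called with the replicate number as a block.

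In the differentiated Sp1_deltaDBD cells the median log2 fold change was -0.24 in Flk1+ cells, -0.45 in HE1, -0.27 in HE2 and 0.15 in progenitors. In Flk1+ cells 2 members were called, against 5.54% of all genes. Hist2h2bb stood at 1441 FPKM in both mutant samples, which held the same rank in their libraries, against 815 and 843 (0.80, SE 0.163, adjusted p = 0.00576). Hist1h2aa, a gene known from testis, was at 0.897 and 0.448 against 0.0293 and 0.105 (2.18, SE 0.521, adjusted p = 0.0168). It was also the only member called in progenitors, where 8.78% of all genes were called, at 1.08 and 0.371 against 0.0506 and 0.0958 (2.12, adjusted p = 0.015). These levels are low, and WT ESC held 23.6 and 11.9 FPKM.

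In HE1 the only call was Hist3h2a, a member of the small chromosome 11 cluster, which fell (64.9 and 39.9 FPKM against 122 and 90.1, -1.04, SE 0.286, adjusted p = 0.0259), where 10% of all genes were called. In HE2 limma called no member, against 9.67% of all genes, and 2 members had an unadjusted p under 0.05, against 23.7% of all genes. Leaving out a single library changed these counts: for Flk1+ cells to 0 without either WT sample, for HE1 to 0 without WT sample 1 or Sp1_deltaDBD sample 2, to 2 without WT sample 2 and to 10 without Sp1_deltaDBD sample 1, and for progenitors to 0 without WT sample 1 and 3 without WT sample 2. The H4 sum of Sp1_deltaDBD HE1 was 3729 FPKM in sample 1 and 933 in sample 2. Some marker sums also separated Sp1_deltaDBD from WT. In Flk1+ cells endothelial markers were at 16.5 and 39.4 FPKM against 5.59 and 6.92, and mesoderm markers at 334 and 399 against 441 and 446. In HE1 erythroid markers were at 22.2 and 12.1 against 105 and 44.1, and ESC markers at 4.13 and 6.23 against 10.7 and 15.3. Their part in the histone values was not tested.

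Against its effect in ESC, the Sp1_deltaDBD effect on the members had a median difference of -1.003 in Flk1+ cells, -1.12 in HE1, -0.90 in HE2 and -0.63 in progenitors. In Flk1+ cells Hist2h2bb was the only member that passed the limma test of the difference (1.13, SE 0.231, adjusted p = 0.0153), where 1.74% of all genes were called. No member passed it in the other populations, where 3.99%, 2.62% and 3.15% of all genes were called, with 20, 13 and 2 members at an unadjusted p under 0.05, against 18.9%, 15.7% and 18.0% of all genes. The HE1 comparison gave 23 calls, all lower, without Sp1_deltaDBD HE1 sample 1, 7 lower without WT ESC sample 1 and 3 lower without Sp1_deltaDBD ESC sample 2. The Flk1+ comparison gave 4 calls, 1 higher and 3 lower, without WT ESC sample 1, and none without WT ESC sample 2, either WT Flk1+ sample or Sp1_deltaDBD ESC sample 1.

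The replicate number moved with the histone level. Sample 1 exceeded sample 2 in the H2a and H4 sums of all 5 WT groups and all 5 Sp1_deltaDBD groups, with H2a ratios of 1.32 to 2.23 in WT and 1.58 to 4.197 in Sp1_deltaDBD. In Sp3KO this held in 3 of 5 groups for either class, at H2a ratios of 0.987 to 1.54. The sample of a group with the higher GC index also had the higher member median in 10 of 15 groups. The length index was lower in sample 1 than in sample 2 of every Sp1_deltaDBD group, at 0.105 and 0.274 in HE1. That order did not hold in every WT group. Muscle marker sums were also higher in sample 1 of the WT and Sp1_deltaDBD groups sorted from blast culture. They stood at 1696 and 356 FPKM in WT HE1, 438 and 70.7 in WT HE2 and 262 and 77.2 in WT progenitors. In Sp3KO they were 195 and 123, 138 and 116, and 56.8 and 69.1 in that order. Blood progenitor marker sums were lower in sample 1 of the same WT and Sp1_deltaDBD groups. The part of these markers was not tested. Why the samples numbered 1 differ is not given in the sources used here.

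Sp3KO cells were also set directly against Sp1_deltaDBD cells. The number of members called higher was 36 in ESC, 32 in Flk1+ cells, 50 in HE1 and 34 in HE2, with none lower. In progenitors limma called none at the adjusted threshold, and 3 of 69 had an unadjusted p under 0.05, a smaller share than the 26.3% of all genes. The median log2 differences of the 69 were 1.47, 1.57, 1.88, 1.38 and 0.61 in that order, and 0.92, 0.99, 1.35, 0.94 and 0.17 after the GC and length correction. The share of all genes called in either direction was 9.67%, 7.39%, 13.6%, 15.9% and 11.6%, and the share called higher was 4.3%, 3.61%, 6.83% and 7.41% in the first 4. H4 genes provided 10, 7, 12 and 4 of the calls and H2a genes 14, 13, 13 and 13. The counts depended on single libraries. The ESC count was 20 and 1 without Sp1_deltaDBD samples 1 and 2, and 0 and 4 without Sp3KO samples 1 and 2. In Flk1+ cells it was 0 without Sp1_deltaDBD sample 2 and 0 and 1 without Sp3KO samples 1 and 2, in HE1 it was 6 without Sp1_deltaDBD sample 2 and 20 without either Sp3KO sample, and in HE2 it was 1 without Sp1_deltaDBD sample 2 and 7 and 1 without Sp3KO samples 1 and 2. In progenitors there were 2 calls without Sp1_deltaDBD sample 2.

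During WT differentiation, histone mRNA rose from ESC to Flk1+ cells, where 33 members were called higher and 4 lower, against 52.2% of all genes, 27.4% higher and 24.7% lower. The members' share of higher calls was thus above that of all genes and their share of lower calls below it, which was not tested. Hist1h3e went from 145 and 79.0 to 484 and 432 FPKM (log2 fold change 2.09, SE 0.402, adjusted p = 2.27e-04) and Hist1h4h from 122 and 47.1 to 375 and 301 (2.14, adjusted p = 0.0236). Of the 33, 10 were H4, 8 H2b, 7 H3, 6 H2a and 2 H1 genes. The 4 that fell were Hist1h2aa (from 23.6 and 11.9 to 0.0293 and 0.105, -6.70, adjusted p = 3.1e-09), Hist3h2ba (from 37.8 and 17.0 to 4.11 and 2.06, -3.08), Hist3h2bb-ps (-2.62) and Hist2h2bb (from 1301 and 1521 to 815 and 843, -0.76, adjusted p = 6.25e-04). Hist1h2aa and Hist3h2ba thus had their WT maximum in ESC. The number called in both directions together, 37 with all libraries, fell when ESC sample 2 or either Flk1+ sample was left out. It fell most without ESC sample 2. Such fits leave 1 sample in a group.

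From Flk1+ cells to HE1, 17 of 69 members fell and none rose, against 53.0% of all genes in either direction and 29.5% lower, a larger share than that of the members. They were 12 H2b, 4 H1 and 1 H3 gene, among them Hist1h2be (338 and 334 to 124 and 115 FPKM, -1.50, SE 0.331, adjusted p = 8.4e-04), Hist1h1a (742 and 766 to 480 and 382, -0.82, adjusted p = 0.00694) and the testis gene Hist1h1t (5.22 and 5.36 to 0.459 and 0.127, -3.92, adjusted p = 0.00159). From HE1 to HE2, 12 members rose and none fell, against 21.9% of all genes in either direction and 11.7% higher, and 9 of them were H2b genes, such as Hist1h2bh (145 and 114 to 316 and 264, 1.17, SE 0.204, adjusted p = 5.46e-04). The 1 H4 gene called was Hist1h4m (0.0477 and 0.0475 to 0.15 and 58.1, 4.69, adjusted p = 0.0496), which was high in HE2 sample 2 and near 0 in the other libraries. Its sum with the near-identical Hist1h4n overlapped between the steps, at 311 and 146 in HE1 and 432 and 266 in HE2. Hist1h1a rose again, to 1038 and 858 (1.14, adjusted p = 0.00207). From HE2 to progenitors Hist3h2bb-ps, a pseudogene, was the only call (7.31 and 5.24 to 18.0 and 9.55, 1.07, adjusted p = 0.0392), where 13.2% of all genes were called. The Flk1+ to HE1 count was 11 without Flk1+ sample 2 and 10 without HE1 sample 2, and the HE1 to HE2 count was 7 without HE2 sample 1. For the last step there was 1 call, of a lower level, without HE2 sample 1, none without HE2 sample 2 or progenitor sample 1, and 6 without progenitor sample 2.

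The population with the highest group mean differed between genotypes. In WT 37 of 69 members had their highest mean in progenitors and 51 their lowest in ESC. In Sp1_deltaDBD 62 were highest in progenitors and 49 lowest in HE1. In Sp3KO 37 were highest in Flk1+ cells and 42 lowest in HE1, with 9 lowest in ESC. These counts describe the order of group means, which was not tested.

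Genes that act on histone mRNA or take up its product were read in the same comparison. Of 12 genes of histone mRNA processing, among them Slbp, Npat and Lsm11, none was called in Sp3KO ESC, with a median log2 fold change of -0.21. Of all genes, 11.3% were called there in either direction and 5.4% higher. Of 18 histone chaperones, Daxx was higher (0.42, adjusted p = 0.0416) and Atrx lower (-0.65, adjusted p = 0.0371). That share lay near the 11.3% of all genes called in either direction, so it is not read as a result about chaperones. The products of both genes, which moved in opposite directions here, are known to deposit the variant H3.3 together. Of 11 replication-independent histone genes, whose mRNAs are mostly polyadenylated, H1fx (2.46, adjusted p = 4.63e-04), H2afx (1.65, adjusted p = 5.31e-04) and H2afy2 (1.03, adjusted p = 0.00523) rose. H2afx, which marks DNA damage and can produce stem-loop mRNA in S phase, was at 176 and 149 FPKM in Sp3KO ESC against 54.7 and 48.4 in WT.

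Among 24 S phase genes, Cdt1, a replication licensing factor, was the only one called in Sp3KO ESC (0.69, adjusted p = 0.0204), and the median was -0.01. Of all genes, 5.4% were called higher there. In Sp3KO HE1 10 of 24 rose, with a median of 0.46, against 6.02% of all genes called higher. Among them were Ccna2 (0.65, adjusted p = 3.71e-04), Gins1 (0.82) and Cdc45 (0.58). In HE2 7 rose, in Flk1+ cells 2 and in progenitors 1, with none lower. The shares of all genes called higher were 6.97%, 6.69% and 3.88%, and the Flk1+ and progenitor counts lay near them. Along the WT course 16 of 24 S phase genes fell from Flk1+ cells to HE1, where 17 of 69 histone members and 29.5% of all genes did, and 16 rose from HE1 to HE2, where 12 histone members and 11.7% of all genes did. The part of cycling cells in the histone differences was not tested.

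Other short RNAs without a poly(A) tail were read beside the histones. Of 115 small nucleolar, small Cajal body and related RNA genes, 5 rose in Sp3KO ESC with a median log2 fold change of 0.03, while the histone median was 2.26. The share of all genes called higher there was 5.4%. In HE1, HE2 and progenitors 23, 25 and 29 rose, with medians of 0.85, 0.69 and 0.95, against 6.02%, 6.97% and 3.88% of all genes called higher. In Flk1+ cells 2 rose and 4 fell, against 12.6% of all genes called in either direction. In HE1, HE2 and progenitors 27, 18 and 3 histone members rose, and the relation between both groups of RNA was not tested.

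The expression table holds 7 non-histone genes in the span of 54 of the 55 Hist1 genes on chromosome 13 (21715763 to 23934851). These were read as a local comparison. Their means ran from 0.269 FPKM for Btn2a2 to 11.9 for Zfp322a, and those of Btn2a2, Hfe, C230035I16Rik and Btn1a1 lay below 1. Most members had a mean above 100 FPKM, so a lack of calls among these genes says little about the locus. In Sp3KO ESC none of them was called, with log2 fold changes from -0.25 to 1.06, and in Flk1+ cells only Abt1 was (0.66, adjusted p = 0.0384). In Sp3KO ESC the 54 Hist1 members in this span had a median log2 fold change of 2.28, and Hist1h2al, the only Hist1 member outside it, had 3.73.

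Outside the 69, the genes whose level over the 30 samples was most like the median of the members were Mrpl53 (Pearson r = 0.914), Ppp1r35 (0.912), Arl2 (0.8996), Sf3b5 (0.898), Siva1 (0.895), H2afx (0.890), Acbd6 (0.890), Lsm4 (0.888), Timm13 (0.882) and Hspbp1 (0.874). In Sp3KO against WT their log2 fold changes were positive in all 5 populations, from 0.69 to 2.88 in ESC. The choice of genes favoured this. The member median in log2(FPKM + 0.1) was at least 8.09 in Sp3KO libraries and at most 7.60 in WT libraries. The 30 samples share genotypes and library properties, and H2afx was the only histone gene among them.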

How the data were processed

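RNA-seq libraries of total RNA depleted of ribosomal RNA (stranded kit, paired-end reads) were made from 2 biological replicates of each of 15 groups, sequenced in pools of libraries whose make-up is not given in the sources used here. Per the labels and the study's methods, reads were aligned with HISAT2 2.1.0 to mm10 and assembled with StringTie 1.3.3. The authors deposited 1 table of FPKM values, quantile normalised across the 30 samples, so values near the top reflect rank within a library. The deposited FPKM hold no read depth, and no counting interval can be given. All 30 sample columns were used. No pair of columns was identical.

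Values were analysed as log2(FPKM + 0.1) with limma 3.58.1 in R 4.3.3, with 15 group means, empirical Bayes moderation with an intensity trend and all 30 samples in 1 fit, which shares the spread. Genes above 1 FPKM in at least 1 sample were tested. P-values were two-sided and Benjamini-Hochberg adjusted over 14525 genes within each comparison, with a threshold of 0.05, and a gene past it is said to be called, to have risen or to have fallen. The pseudocount understates changes of low genes. With 2 samples against 2, an exact permutation test cannot go below p = 0.333. Errors after a mean are not printed because both values are given, and SE is that of the log2 fold change. P-values rest on the spread between the 2 samples of a group, pooled over all 15 groups and moderated across genes. They are therefore not the spread of the compared samples alone. Each mutation was carried by a single line, so p-values do not cover variation between lines. The fitting code was checked on simulated data.

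Gene models, GC content and stem-loops came from GENCODE on GRCm38, the build of mm10, and promoters from RefSeq GRCm38.p6. Members were named when they had the 2 highest means of their class, when they were among the 2 largest rises or falls called without overlap in a mutant comparison with WT or a WT step, or when they belonged to Hist3, Hist4 or a tissue-restricted set. The 10 most alike genes and at most 4 called genes per other list and comparison were named too. Hist1h1b, Hist1h2al, the members of the promoter, stem-loop and copy sets, and the 7 neighbouring genes were named after their values were seen. The motif searches and the GC and length indices were chosen then too. The members and all gene lists were chosen with earlier results of these data known. Alternatives were a pseudocount of 1, no filter, a replicate block, a GC and length correction (spline within each library), each population fitted alone, the study's rule of a 2-fold change with mean above 3 FPKM, and leaving out each library.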

Additional observations from a re-analysis of the deposited data

Results flagged for a closer look

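Hist2h2bb, an H2b gene of the chromosome 3 cluster and the most abundant member, was the only member whose mutant effect in a later population differed from that in ESC by limma's test of the difference. The difference between Flk1+ cells and ESC was 1.13 on the log2 scale for Sp1_deltaDBD (adjusted p = 0.0153) and 1.17 for Sp3KO (adjusted p = 0.015). Both values use the same 4 WT libraries, in which Hist2h2bb stood at 1301 and 1521 FPKM in ESC and 815 and 843 in Flk1+ cells. In the mutants it stood at 965 and 1301 in Sp1_deltaDBD ESC, 1441 in both Sp1_deltaDBD Flk1+ samples, 1376 and 1521 in Sp3KO ESC and 2128 and 1729 in Sp3KO Flk1+ cells, so that it fell from ESC to Flk1+ cells in WT and was higher in Flk1+ cells than in ESC in every mutant sample. Neither difference passed the test when WT ESC sample 2, either WT Flk1+ sample or sample 1 of the mutant ESC was left out, nor, for Sp3KO, without Sp3KO Flk1+ sample 1.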

How the results depend on the processing

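In Sp3KO against WT, 49, 21, 27, 18 and 3 members were called in ESC, Flk1+ cells, HE1, HE2 and progenitors, and with a pseudocount of 1 the counts were 49, 25, 28, 21 and 4. Leaving out the filter did not change them. With the replicate block they were 39, 45, 35 and 7 from Flk1+ cells on, and with the study's fold rule 43, 49, 34 and 20. Each population fitted alone gave 21 in ESC and 0 in HE1, HE2 and progenitors, and the GC and length correction gave 7 in HE2. For Sp1_deltaDBD against WT, the block gave 11 in ESC, 2 in HE1 and 1 in HE2, each population alone gave 0 in ESC, Flk1+ cells, HE1 and progenitors, a pseudocount of 1 gave 1 in Flk1+ cells and 0 in progenitors, the correction gave 2 in HE1 and 2 in progenitors, and the fold rule 0, 3, 1 and 4 from Flk1+ cells on. For Sp3KO against Sp1_deltaDBD, the correction gave 21, 21 and 13 in ESC, Flk1+ cells and HE2 and 4 lower calls in progenitors, where a pseudocount of 1 gave 2 higher. Along the WT course the block gave 31, 30 and 5 calls from Flk1+ cells on, and the correction 0 in the last step. Of the tests against the effect in ESC, Sp1_deltaDBD in HE1 gave 4 with the block and 2 with the correction, Sp3KO in HE1 gave 1 with the correction, and Sp3KO in progenitors gave 13 with the block, 3 with a pseudocount of 1 and 1 with the correction. The log2 ratio of the H2b sums in Sp3KO and WT ESC was 0.97, 1.32 without Hist2h2bb and 1.46 when the median level of the members in each sample took the place of the sum. The causes were not tested. Shares of all genes called with the pseudocount of 1, the block, the fold rule and the separate fits are not given here. The counts under these settings therefore show only how the number of called members moved, and are not read against all genes.

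Leaving out 1 library at a time gave counts of 29 to 48, 2 to 6, 7 to 17, 0 to 4 and 1 to 4 for Sp3KO against WT in that order, and 0 to 7, 0 to 2, 0 to 10, 0 to 1 and 0 to 3 for Sp1_deltaDBD. It gave 0 to 20, 0 to 34, 6 to 56, 1 to 36 and 0 to 2 for Sp3KO against Sp1_deltaDBD, and 10 to 45, 10 to 18, 7 to 10 and 0 to 6 for the WT steps. Against the effect in ESC it gave 0 to 4, 0 to 23, 0 to 3 and 0 to 3 for Sp1_deltaDBD and 0 to 4, 0 to 1, 0 to 0 and 0 to 4 for Sp3KO. The balance of calls turned from higher to lower in 4 cases: 1 call for Sp3KO in HE2 and 1 for the last WT step, both without WT HE2 sample 1, and 4 calls for each mutant in Flk1+ cells against ESC without WT ESC sample 1. Of the alternatives for 25 named gene values, 138 kept and 78 lost the call, and none changed direction. Same-numbered WT and Sp1_deltaDBD samples deviated together (correlations of 0.255 to 0.481 over 10052 genes), WT and Sp3KO samples less so (0.00318 to 0.194), and the labels do not say that a number marks a shared culture, so pairing was not assumed. Read depth is not given in the values, so its limit on low genes cannot be stated.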
